A study of Mus musculus with 13 samples.

Results

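Central memory CD8+ T cells taken 45 days after an infection were compared, cell by cell, with the memory precursors taken from the same kind of infection at day 7. Members were chosen by their population label alone: 138 cells labelled Tcm (central memory) and 62 labelled Tmp (memory precursor) at day 7, together 200 of the 1449 single cells in 13 populations. Both populations descend from OT-1 cells, CD8+ T cells of 1 transgenic receptor that recognises an ovalbumin peptide. Of these, 5000 CD45.1+ cells were transferred into CD45.2+ C57BL/6J recipients, which received 5000 colony-forming units of Listeria monocytogenes expressing ovalbumin into a vein a day later. Cells came from the spleen. How the cells were gated, and how many animals of what age were used, is not given in the sources used here.

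After an acute infection most activated CD8+ T cells die, and a minority survives. Cells labelled memory precursors at the peak of the response are those held to give rise to long-lived memory, and central memory cells are the long-lived cells that recirculate through lymph nodes and expand again on a second encounter. Their upkeep depends on the cytokines IL-7 and IL-15, and the transcription factor TCF-1, the product of Tcf7, is needed for their formation and persistence.

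Each cell was measured by quantitative PCR for 94 genes. A value counts PCR cycles, so 1 cycle more stands for a doubling of template if the reaction is fully efficient, and 0 means that the transcript was not detected. Of all values in the 200 cells, 82.9% were 0. For each gene, the share of cells with a value above 0 and the median of the values above 0 are given separately. There was 1 sample per population, and its cells do not stand in for replicates, so none of the differences could be tested. A gene is counted as different by size alone: at least 20 percentage points in share, or at least 1 cycle in the median. Shares are followed by exact (Clopper-Pearson) 95% intervals, which cover counting error only and leave out differences between animals, sorts and runs. Age since infection, sort and run differ together between the populations and cannot be told apart. For a transcript found in 0 cells, the share that 3 counts would give is used as the limit, 2.17% among Tcm and 4.84% among day 7 Tmp cells. The exact two-sided interval is wider and reaches 2.64% and 5.78%.

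Both populations carried the markers of their label in part. Cd8a and Ptprc (the gene of CD45) were found in both, and Cd4 in 1 Tcm cell and 0 Tmp cells. Foxp3, the factor of regulatory T cells, was found in 0 cells of either. Gata3, a factor prominent in helper cells and also present in CD8+ cells, was found in 5 Tcm and 4 Tmp cells. Cd44 transcript was found in 5 Tcm and 0 Tmp cells, and its share did not exceed 7.14% in any of the 13 populations, although the protein is a hallmark of activated and memory cells. Klrg1, the surface marker of short-lived effectors, was found in 2 Tcm cells and 0 Tmp cells. Since the gates are not given, it may have been part of how the cells were selected. Of the further markers of terminal effectors, Zeb2 was found in 11 Tcm cells (7.97%) and 12 Tmp cells (19.4%), and Prdm1 in 3 and 1.

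The columns of each population in the deposited table fall into 2 consecutive stretches whose values of R18s (18S ribosomal RNA) and Actb (beta-actin) differ. Tcm has a first stretch of 83 cells and a second of 55, and day 7 Tmp a first of 44 and a second of 18. The median R18s value was 27.1 in the first and 28.01 in the second Tcm stretch, but 29.1 and 25.1 in the Tmp stretches. The median number of genes detected per cell was 17 among Tcm cells (range 10 to 24) and 14 among Tmp cells (range 6 to 21). By stretch it was 17 and 16 for Tcm against 15 and 11 for Tmp. The second Tmp stretch therefore stands apart from the other 3, with fewer genes per cell and lower R18s and Actb values. Not all genes followed: its median Tcf7 value was 15.44, against 14.00 in the first Tmp stretch. The part of these stretches in any difference below was not tested, and values are given by stretch beside each result that rests on them.

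**Figure D1:**
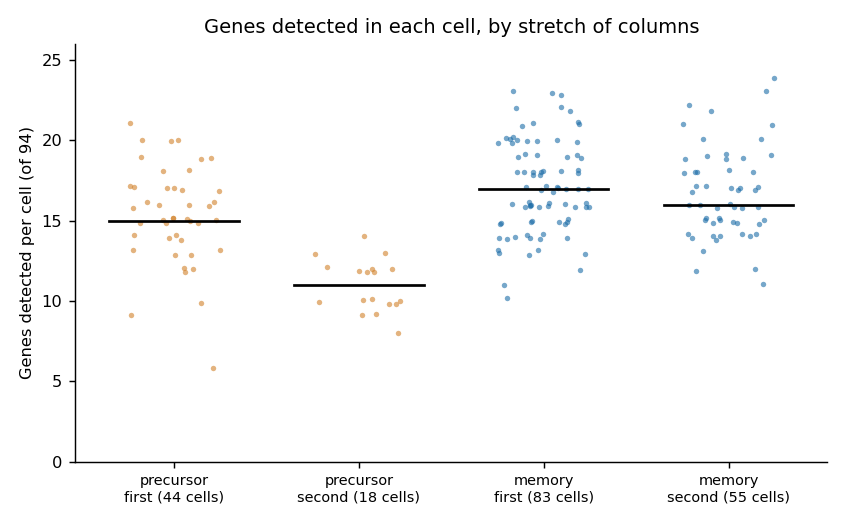
Number of genes detected in each cell (y axis, of 94), by population and stretch of consecutive columns (x axis); each point is 1 cell and each bar a median. The 18 precursor cells of the second stretch have a median of 11, below the medians of 15, 17 and 16 in the other stretches.

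The sequences just upstream of 2 of the genes that set the populations apart are shown first, to give the regulatory context of genes that are higher in memory cells. Il7r and Cd8a are the genes that were at least 20 points higher in share, higher in all 4 pairings of a Tcm with a Tmp stretch, and listed with 1 transcription start in the RefSeq promoter table of assembly GRCm38.p6. The windows are the 250 bases before the start, printed 5′ to 3′ on the gene's strand: chr15:9529877-9530126, minus strand, for Il7r and chr6:71373177-71373426, plus strand, for Cd8a. Capitals mark a match to GGAAGT on either strand, the core letters bound by ETS factors.
Il7r: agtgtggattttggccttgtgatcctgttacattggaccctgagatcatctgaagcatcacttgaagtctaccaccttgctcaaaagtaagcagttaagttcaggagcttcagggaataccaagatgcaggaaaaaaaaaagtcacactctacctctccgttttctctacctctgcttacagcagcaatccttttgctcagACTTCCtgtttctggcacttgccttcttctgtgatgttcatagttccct
Cd8a: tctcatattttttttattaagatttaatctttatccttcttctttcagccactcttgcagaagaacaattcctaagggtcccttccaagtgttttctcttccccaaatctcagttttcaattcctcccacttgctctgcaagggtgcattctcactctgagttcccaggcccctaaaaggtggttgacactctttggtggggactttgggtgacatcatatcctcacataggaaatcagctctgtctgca
The Il7r window held 1 match to GGAAGT, read as its reverse complement ACTTCC, and the Cd8a window held 0. Of the 32851 promoter windows of the same length, 19.7% held such a match. Neither window held TGTGGT (RUNX factors, 14.0% of windows), CTTTGA (TCF-1 and LEF-1, 13.8%), GTAAACA (forkhead factors, 3.17%) or GGGCGG (GC box, 32.7%), searched on both strands. These are matches of letters and carry no measurement of binding.

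More Tcm cells than day 7 Tmp cells held transcripts of the receptor chains for the memory cytokines (Il7r and Il2rb), of Tcf7 and of Cd8a. By share, 6 of 94 genes (6.38%) were at least 20 points higher in Tcm cells, and 0 of 94 (0%) were at least 20 points lower. Il7r, Tcf7, Cd8a, Id2 and Il2rb were among the 6. For comparison, the first stretch of Tmp cells was at least 20 points above the second for 9 of 94 genes (9.57%), more genes than separate the populations. Between the stretches of Tcm, 2 of 94 genes (2.13%) were higher in the first and 4 (4.26%) in the second. The intervals of the 2 populations did not overlap for 7 of 94 genes, all higher in Tcm. Il7r, Tcf7, Cd8a, Id2, Pdcd1 and Ccr7 were among the 7. All 35 Tcm cells with Id2 lay in the second Tcm stretch, and all 21 with Pdcd1 in the first.

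**Figure D2:**
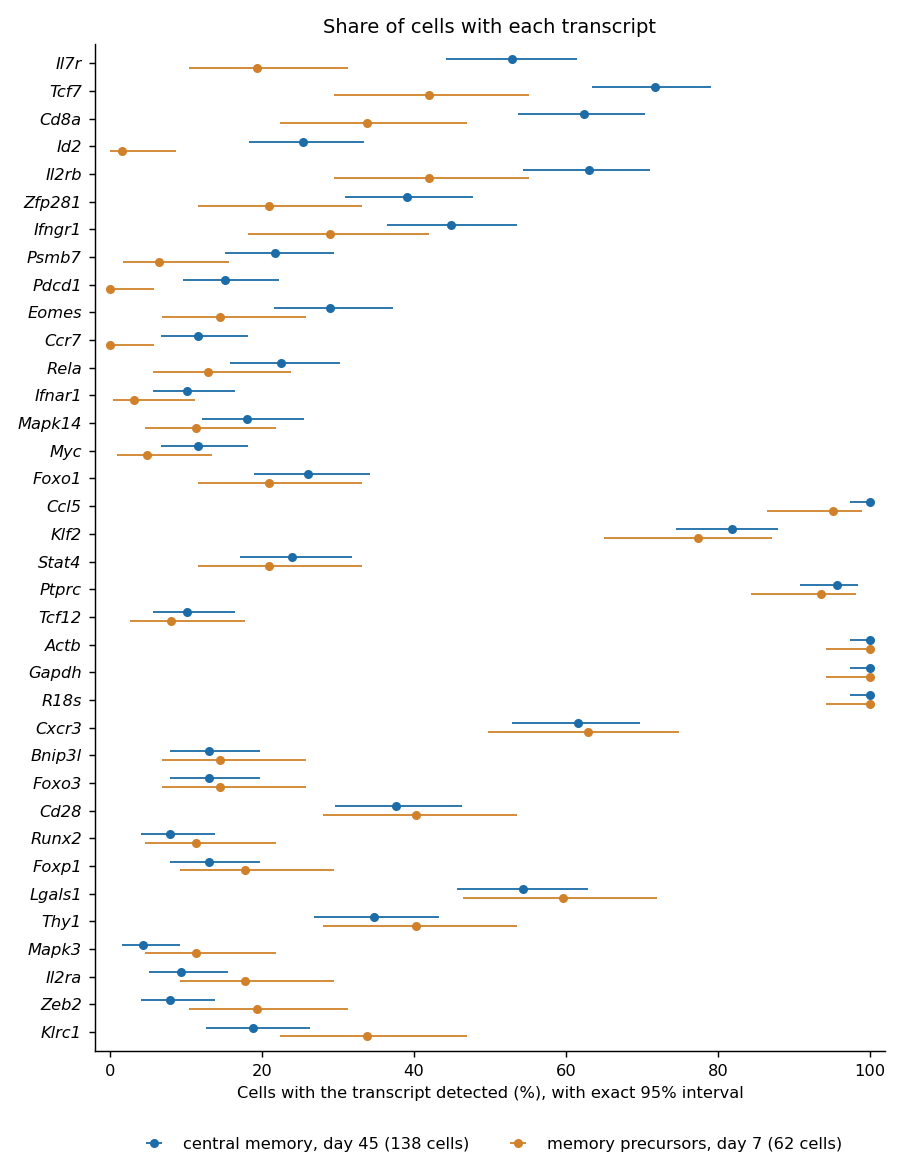
Share of cells with each transcript (x axis, percent, with exact 95% intervals) in central memory (blue, 138 cells) and day 7 precursor cells (orange, 62 cells), for genes named here and found in at least 10% of either population, ordered by the difference. Il7r leads at 52.9% against 19.4%, and Klrc1 closes the order at 18.8% against 33.9%.

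Il7r, which encodes the IL-7 receptor alpha chain that carries survival signals to resting T cells, showed the widest difference among the genes named. The transcript was present in 73 of the 138 Tcm cells (52.9%, 44.2 to 61.4) but in 12 of the 62 Tmp cells (19.4%, 10.4 to 31.4), a difference of 33.5 points. In the Tcm stretches the share was 44.6% and 65.5%. All 12 Tmp cells with Il7r lay in the first stretch, 27.3% of its 44 cells, and 0 of 18 lay in the second, which allows a share of up to 16.7% by the limit of 3 counts (18.5% by the exact interval). The difference narrowed to 17.3 points between the longer stretches and to 11.2 points in the earlier columns (by file order) of each population, both short of the size rule. Tcm cells that held the transcript did not hold more of it: the median value was 16.28 in Tcm and 17.22 in Tmp cells, 0.94 cycles lower in Tcm. Because IL-7 receptor protein is commonly used to sort memory precursors and the gates are not given, Il7r may have been part of how the cells were selected.

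Il2rb encodes the beta chain shared by the IL-2 and IL-15 receptors. It was found in 87 Tcm cells (63.0%, 54.4 to 71.1) and in 26 Tmp cells (41.9%, 29.5 to 55.2), 21.1 points apart, and the intervals overlapped slightly. The shares were 60.2% and 67.3% in the Tcm stretches and 43.2% and 38.9% in those of Tmp, so each Tcm stretch lay above each Tmp stretch. The difference was 17.4 points among cells with at least 10 genes detected and 17.1 points between the longer stretches, below the size rule. The median value of cells with the transcript was 15.88 against 15.78. Il2ra, the high-affinity IL-2 receptor chain that marks recent activation, went the other way in share, with 13 Tcm cells (9.42%, 5.11 to 15.6) and 11 Tmp cells (17.7%, 9.20 to 29.5). The Tmp cells with Il2ra were 10 of the first stretch and 1 of the second. Ifngr1, the ligand-binding chain of the interferon-gamma receptor, was found in 62 Tcm cells (44.9%) and 18 Tmp cells (29.0%), and the median value in these cells was 1.07 cycles lower in Tcm. Il2 was measured by 2 assay rows and found in 0 cells of either population. Of the 5 measured genes in the list of cytokines and their receptors, 2 were at least 20 points higher and 0 lower, against 6.38% higher and 0% lower over all 94 genes. The median difference of the list was 15.9 points, against 0.28 points over all 94 genes. Among cells with 13 to 17 genes detected it was 7.18 points.

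Among the transcription factors of naive and memory cells, Tcf7 stood out in both measures. It was found in 99 Tcm cells (71.7%, 63.5 to 79.1) and 26 Tmp cells (41.9%, 29.5 to 55.2), a difference of 29.8 points. The share was 73.5% and 69.1% in the Tcm stretches and 38.6% and 50.0% in the Tmp stretches. In the later columns of each population alone the difference was 13.3 points, below the size rule. In the cells that held it, the value was also higher. The median was 16.74 in Tcm cells (quartiles 15.85 and 17.35) and 14.75 in Tmp cells (13.73 and 15.43), 1.99 cycles apart. Across the 4 pairings of stretches this difference ran from 1.13 to 2.94 cycles. More memory cells thus had a Tcf7 value above 0, and those values were higher, while the ranges overlapped (12.37 to 18.30 in Tcm, 12.30 to 16.46 in Tmp).

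Of the 11 measured genes in the list of naive and memory factors, 1 (Tcf7) was at least 20 points higher and 0 were lower, against 6.38% and 0% over all genes. Of the 11, 8 had a share above that of Tmp and 2 below, with a median of 4.46 points, and over all 94 genes 47 were above and 31 below. Among cells with 13 to 17 genes detected, 6 of the 11 were above and 4 below, with a median of 1.30 points. Eomes, a T-box factor tied to IL-15 responsiveness, was found in 40 Tcm cells (29.0%, 21.6 to 37.3) and 9 Tmp cells (14.5%, 6.86 to 25.8), and its shares by stretch were close, at 28.9% and 29.1% against 13.6% and 16.7%. Lef1, the relative of Tcf7, was found in 12 Tcm cells (8.70%) and 2 Tmp cells (3.23%). Zfp281, a zinc-finger factor, was found in 54 (39.1%) and 13 (21.0%), but 50.6% of the first and 21.8% of the second Tcm stretch held it, a gap wider than that between the populations.

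Other members of this list differed by less, and some turned among cells with 13 to 17 genes detected. That match counts the compared genes themselves, so genes higher in Tcm leave fewer places for the others. Klf2, which drives the genes of lymphocyte recirculation, was found in 113 Tcm cells (81.9%) and 48 Tmp cells (77.4%), with medians of 15.46 and 15.47, and in 83.1% and 90.6% of the cells so matched. Foxo1, which promotes Il7r and other genes of resting cells, was found in 36 (26.1%) and 13 (21.0%), but in 13.0% of matched Tcm and 28.1% of matched Tmp cells. Foxo3 was found in 18 (13.0%) and 9 (14.5%), and Foxp1, a factor of quiescence, in 18 (13.0%) and 11 (17.7%), and in 5.19% and 21.9% of matched cells. Bcl6 was found in 4 Tcm and 0 Tmp cells, Bmi1 in 8 and 2, and Id3 in 0 of either. The share of Id3 did not exceed 5.59% in any of the 13 populations.

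Counted per cell, 89 of 138 Tcm cells (64.5%) and 19 of 62 Tmp cells (30.6%) held transcripts of at least 3 of the 11 naive and memory factors. The share was 69.9% and 56.4% in the Tcm stretches and 38.6% and 11.1% in the Tmp stretches. Naive cells, the starting point of the response, had 61.1%. The median number of genes detected per cell was 17 in Tcm, 14 in day 7 Tmp and 12 in naive cells. Among cells with 13 to 17 genes detected the populations were closer, at 37 of 77 Tcm cells (48.1%) and 13 of 32 Tmp cells (40.6%).

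Tcf7 and Il7r were also found together more often in memory cells. Both transcripts were seen in 55 of 138 Tcm cells (39.9%, 31.6 to 48.5) and in 2 of 62 Tmp cells (3.23%, 0.393 to 11.2). Tcm cells with Tcf7 alone numbered 44, with Il7r alone 18 and with neither 21. Tmp cells with Tcf7 alone numbered 24, with Il7r alone 10 and with neither 26. If the transcripts were spread over cells independently of each other, the product of their shares would give 37.9% with both in Tcm and 8.12% in Tmp. In Tcm the observed share lay near that product, and in Tmp below it, with the product inside the interval. Within the first Tmp stretch alone, where all Il7r was found, 2 of 44 cells (4.55%) held both, against a product of 10.5%. Among cells with 13 to 17 genes detected, 26 of 77 Tcm cells (33.8%, 23.4 to 45.4) and 1 of 32 Tmp cells (3.12%, 0.0791 to 16.2) held both. In both populations, cells with 1 of the 2 transcripts alone outnumbered those with both. They were 24 and 10 against 2 in Tmp, and 44 and 18 against 55 in Tcm.

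**Figure D3:**
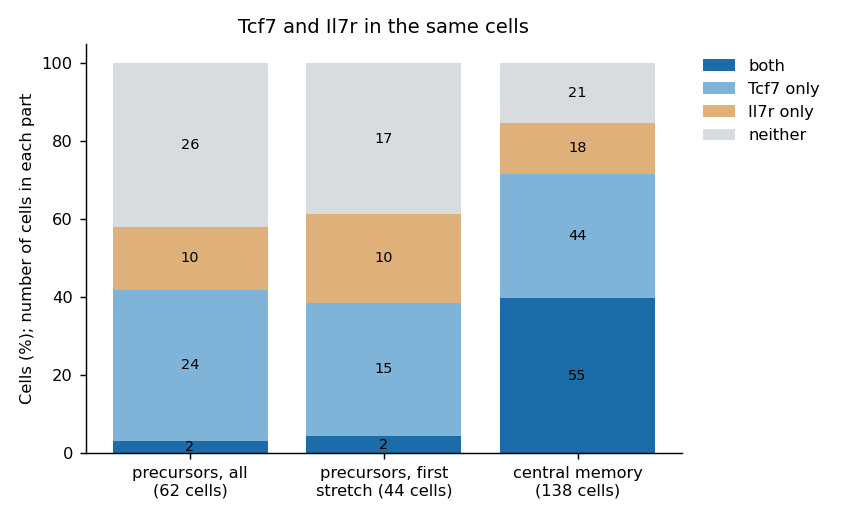
Division of cells by Tcf7 and Il7r (y axis, percent of cells; numbers are cells) for all 62 precursors, the 44 precursors of the first stretch and the 138 central memory cells (x axis). Cells with both make up 3.23%, 4.55% and 39.9%.

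Other pairs were found together to varying degrees. Tcf7 and Klf2 were found together in 58.0% of Tcm cells and 32.3% of Tmp cells, each near the product of shares (58.7% and 32.5%). Tcf7 and Eomes were found together in 34 Tcm cells (24.6%, 17.7 to 32.7, product 20.8%) and 5 Tmp cells (8.06%, product 6.09%). Of the 40 Tcm cells with Eomes, 85.0% also held Tcf7, against 66.3% of those without Eomes. Tcf7 and Cd8a were found together in 63 Tcm cells (45.7%, product 44.7%) and 13 Tmp cells (21.0%, product 14.2%). Il7r and Il2rb, the receptor chains for IL-7 and IL-15, were found together in 45 Tcm cells (32.6%, product 33.3%) and 3 Tmp cells (4.84%, product 8.12%).

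Genes of effector cells were mostly rare in both populations. Of the 13 measured effector transcription factors, 1 (Id2) was at least 20 points higher in Tcm and 0 were lower, near the 6.38% and 0% over all genes, with a median difference of 0.56 points. Id2, an inhibitor of E proteins that acts in effector cells, was found in 35 Tcm cells (25.4%, 18.3 to 33.5) and 1 Tmp cell (1.61%, 0.0408 to 8.66). All 35 lay in the second Tcm stretch, where they made up 63.6% of cells, and 0 of 83 lay in the first. Their values were low, with a median of 10.36, and 3.62% of Tcm cells had a value above 12. Without the second stretch of each population the difference was -2.27 points, so the Id2 difference rests on that stretch alone.

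Zeb2, which promotes the terminal effector state, was lower in memory cells by less than the size rule. It was found in 11 Tcm cells (7.97%, 4.05 to 13.8) and 12 Tmp cells (19.4%, 10.4 to 31.4), 4.82% and 12.7% by Tcm stretch and 22.7% and 11.1% by Tmp stretch. Stat4, which relays IL-12 signals, was found in 33 (23.9%) and 13 (21.0%). The factors that direct effector differentiation in other settings were near or at 0: Tbx21 (T-bet) was found in 3 Tcm and 0 Tmp cells, Prdm1 (Blimp-1) in 3 and 1, Irf8 in 3 and 1, and Irf4 and Bhlhe40 in 0 of either. Tbx21 did not exceed 3.80% and Bhlhe40 5.84% in any of the 13 populations. Prdm1 reached 20.8% in day 5 bulk cells, and Irf8 and Irf4 reached 29.9% and 38.9% in first-division cells. None of the 13 factors was found in 54 Tcm cells (39.1%) and 30 Tmp cells (48.4%).

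Of the 7 measured cytotoxic and effector molecules, 0 passed the size rule for shares in either direction, near the 6.38% higher and 0% lower over all genes. The median difference of the list was -2.99 points. Klrc1, the gene of the inhibitory receptor NKG2A, was found in 26 Tcm cells (18.8%, 12.7 to 26.4) and 21 Tmp cells (33.9%, 22.3 to 47.0). It had the widest difference towards Tmp, 15.0 points. The Tcm stretches were far apart, at 9.64% and 32.7%, and so were the Tmp stretches, at 40.9% and 16.7%, so the order of the populations depended on the stretches compared. Gzmb, the protease of cytotoxic granules, was found in 7 Tcm cells (5.07%) and 5 Tmp cells (8.06%). Serpinb9, which protects killer cells from their own granzyme B, was found in 1 and 4 cells, and Ifng, the gene of interferon-gamma, in 8 and 1.

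Chemokines were rare except for Ccl5. Ccl3 was found in 2 Tcm and 4 Tmp cells, Ccl4 in 5 and 4, Xcl1 in 4 and 1, and Cxcl10 in 2 and 0. Ccl5, which draws further leukocytes and is stored as transcript by memory CD8+ cells, was found in 138 of 138 Tcm cells and 59 of 62 Tmp cells (95.2%). Its value differed. The median was 18.15 in Tcm cells (range 13.67 to 19.79) and 15.74 in Tmp cells (range 6.63 to 18.32), a difference of 2.40 cycles. The Tcm stretches had medians of 18.13 and 18.16, and the Tmp stretches 16.67 and 12.24. Both Tmp stretches thus lay below both Tcm stretches, by 1.46 to 5.92 cycles, while single cells overlapped.

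By the median of cells with a transcript, 7 of the 24 genes found in at least 10 cells of each population (29.2%) were at least 1 cycle higher in Tcm and 3 (12.5%) at least 1 cycle lower. Lgals1, Ccl5, Ptprc, Tcf7, Actb and Thy1 were among those higher, and Cxcr3, R18s and Ifngr1 were lower. Within the stretches, 19 genes were found in at least 3 cells of each. Of these, 4 were at least 1 cycle higher in Tcm in all 4 pairings (Tcf7, Ccl5, Ptprc and Lgals1) and 0 were lower in all 4.

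Lgals1, the gene of the carbohydrate-binding protein galectin-1, had the widest difference in value and none of that size in share. It was found in 75 Tcm cells (54.3%, 45.7 to 62.8) and 37 Tmp cells (59.7%, 46.4 to 71.9). The median was 16.19 in Tcm cells (quartiles 15.21 and 16.98) and 13.12 in Tmp cells (12.09 and 13.54), 3.08 cycles apart, and from 1.95 to 3.66 cycles across the pairings. Ptprc was found in nearly all cells, 132 (95.7%) and 58 (93.5%), with a median of 18.05 in Tcm and 15.999 in Tmp, 2.05 cycles apart and from 1.02 to 3.84 across the pairings. After each cell's values were centred on its Actb and Gapdh values, the differences were 3.03 cycles for Lgals1, 2.28 for Ccl5, 2.06 for Tcf7 and 1.55 for Ptprc.

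The other differences in value named above did not keep their direction between stretches. Actb was 1.23 cycles higher in Tcm overall and from -0.72 to 3.75 across pairings, Thy1 1.09 and from -2.38 to 1.72. R18s was 1.11 cycles lower in Tcm and from -2.04 to 2.88, and Ifngr1 1.07 lower and from -1.28 to 0.07. Cxcr3, the chemokine receptor that guides T cells to inflamed tissue, was found at like shares, in 85 Tcm cells (61.6%) and 39 Tmp cells (62.9%). Its median was 15.56 in Tcm and 16.86 in Tmp, 1.30 cycles lower, but 14.65 and 17.39 in the Tcm stretches and 17.31 and 15.42 in those of Tmp. The first Tcm stretch was therefore below both Tmp stretches, and the second above the second Tmp stretch and level with the first.

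**Figure D4:**
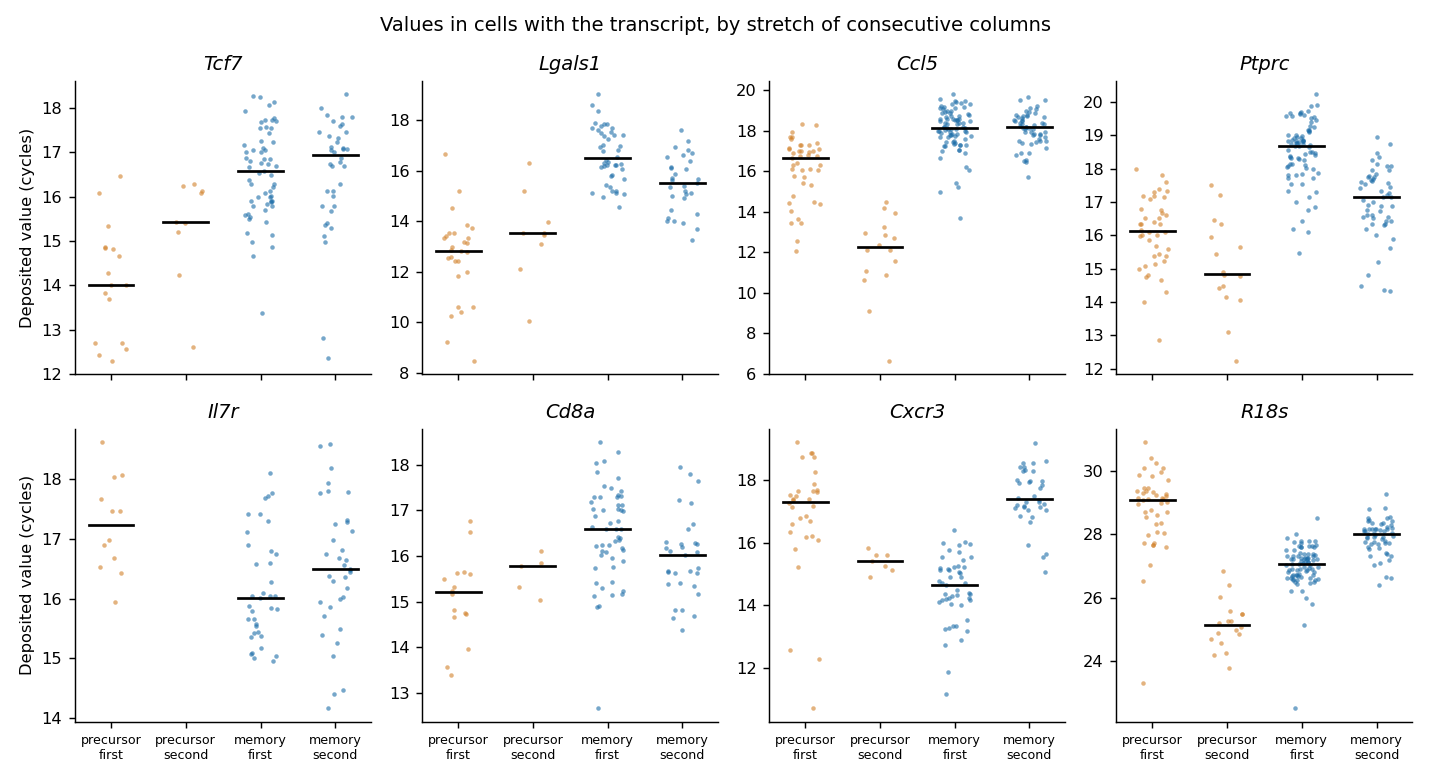
Deposited values in cycles (y axes) of cells with the transcript, by population and stretch of consecutive columns (x axis); points are cells and bars are medians, with a separate y range for each gene that does not start at 0. For Tcf7, Lgals1, Ccl5 and Ptprc both memory medians lie at least 1.02 cycles above both precursor medians, whereas those of Cxcr3 and R18s cross.

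Cd8a, the co-receptor chain that defines these cells, was itself found in more memory cells. It was found in 86 Tcm cells (62.3%, 53.7 to 70.4) and 21 Tmp cells (33.9%, 22.3 to 47.0), 28.4 points apart. The shares were 66.3% and 56.4% in the Tcm stretches and 36.4% and 27.8% in the Tmp stretches. The median value was 16.27 against 15.32, a difference of 0.94 cycles. Since all cells were CD8+ by label, a cell without a Cd8a value is one in which the transcript was not detected. Protein was not measured. Thy1, a pan-T-cell surface protein, was found in 48 Tcm cells (34.8%) and 25 Tmp cells (40.3%).

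Ccr7, the chemokine receptor that brings T cells into lymph nodes, was found in 16 Tcm cells (11.6%, 6.77 to 18.1) and 0 Tmp cells (0 to 5.78). Of the 16, 13 lay in the first stretch and 3 in the second, and 13 also held Tcf7. Pdcd1, which encodes the inhibitory receptor PD-1, was found in 21 Tcm cells (15.2%, 9.67 to 22.3) and 0 Tmp cells, but all 21 lay in the first Tcm stretch (25.3%) and 0 of 55 in the second. Of the 7 measured genes of costimulation, activation and inhibition, 0 passed the size rule. Cd28, the main costimulatory receptor, was found in 52 Tcm cells (37.7%) and 25 Tmp cells (40.3%), Cd69 in 6 and 1, Lag3 in 1 and 1, and Tox in 10 and 5. The 3 measured genes of growth and metabolism were also alike by the rule, with Myc in 16 Tcm cells (11.6%) and 3 Tmp cells (4.84%), Mtor in 11 (7.97%) and 6 (9.68%), and Hk2 in 0 and 2. Of the 4 measured genes of cell death, 0 passed the rule, with Cflar, which restrains caspase-8, in 12 (8.70%) and 3 (4.84%). Over all 94 genes 6.38% were higher and 0% lower by the rule, so a count of 0 in lists this small lies near that share.

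When share and value were combined as the mean level over all cells, counting the cycles above 12 and undetected cells as 0, 9 of 94 genes (9.57%) lay 1 cycle or more above Tmp in Tcm cells and 0 (0%) as far below. Ccl5 led with 3.03 cycles, followed by Tcf7 with 2.20, Ptprc with 2.08, Cd8a with 1.61, Lgals1 with 1.54, Actb with 1.32, Il7r with 1.28 and Pdcd1 with 1.03. Id2 differed by 0.03 cycles on this measure.

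The number of genes detected per cell moves with the populations, so the shares were also compared among cells in which 13 to 17 genes were detected, 77 Tcm and 32 Tmp cells. The match counts the compared genes themselves, so genes higher in Tcm leave fewer places for the others. Over all 94 genes, 34 were above and 37 below in matched cells, against 47 and 31 in all cells. The second Tmp stretch, with an upper quartile of 12 genes per cell, adds few cells to the match. Tcf7 was then found in 67.5% of Tcm and 37.5% of Tmp cells, 30.0 points apart, and Il7r in 45.5% and 21.9%, 23.6 points apart. Cd8a was 19.6 points and Il2rb 19.9 points higher, just short of the size rule. Klrc1 was found in 13.0% and 34.4%, 21.4 points lower in Tcm, which then passed it. Il2ra was found in 3.90% and 21.9%, and Zeb2 in 5.19% and 18.8%.

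Set beside the other populations, day 7 precursors lay below both naive and central memory cells in Tcf7 and Il7r. Tcf7 was found in 75.2% of naive cells, 38.9% of day 5 Tmp, 41.9% of day 7 Tmp, 71.7% of Tcm, 47.8% of effector memory cells (Tem, day 45) and 3.37% of short-lived effectors (Tsle, day 7). The day 5 and day 7 precursors lay within each other's intervals, as did naive and Tcm cells. Its median value was lowest in the precursors too, at 16.6 in naive, 14.9 in day 5 Tmp, 14.7 in day 7 Tmp, 16.7 in Tcm and 15.6 in Tem cells. Il7r was found in 32.9% of naive, 16.7% of day 5 Tmp, 19.4% of day 7 Tmp, 52.9% of Tcm, 15.4% of Tem and 2.25% of Tsle cells, and Tcm ranked 1 of the 13 populations. For Il7r the intervals of naive (25.4 to 41.0) and day 7 Tmp cells (10.4 to 31.4) overlapped. The first Tmp stretch had 27.3% and the second 0%.

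Effector-associated transcripts placed the populations differently. Ccl5 was found in 1.34% of naive, 74.4% of day 5 Tmp, 95.2% of day 7 Tmp and 100% of Tcm cells, and its median went from 12.1 at day 5 to 15.7 at day 7 and 18.1 in Tcm, so that of these 4 populations Tcm lay furthest from naive cells. Cxcr3 was found in 5.37% of naive cells against 62.9% and 61.6% of day 7 Tmp and Tcm, and in 23.5% of Tem cells. Ccr7 was found in 34.9% of naive cells, more than in Tcm. Il2rb was found in 61.1% of day 5 Tmp, 41.9% of day 7 Tmp and 63.0% of Tcm cells, while naive and Tem cells had 19.5% and 20.6%. Zeb2 was found in 48.3% of Tsle and 24.3% of Tem cells, above both Tmp and Tcm. By share, 1 of 94 genes (1.06%) was at least 20 points higher and 2 (2.13%) lower in day 7 than in day 5 Tmp. Tcm differed from naive cells by 10 genes higher (10.6%) and 1 lower (1.06%), and from Tem cells by 12 higher (12.8%) and 0 lower. These counts share the Tcm cells and are given side by side only.

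**Figure D5:**
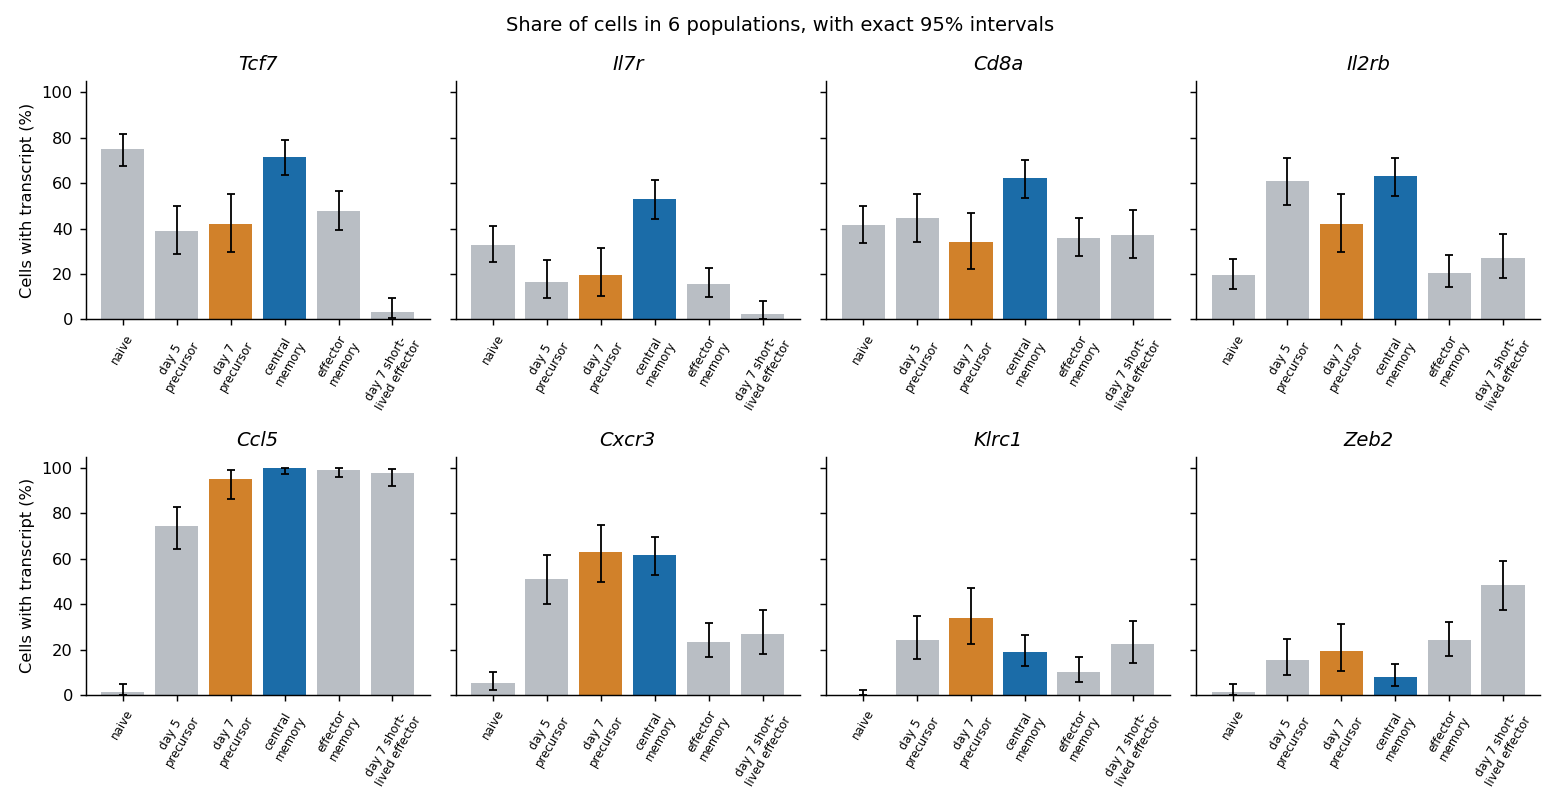
Share of cells with 8 transcripts (y axes, percent, bars with exact 95% intervals) in 6 populations (x axis), with day 7 precursors in orange and central memory in blue. Tcf7 stands at 75.2% in naive, 41.9% in precursor and 71.7% in memory cells, whereas Ccl5 stands at 1.34%, 95.2% and 100%.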

How the data were processed

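Single spleen CD8+ T cells were sorted into a reverse transcription and preamplification mix, amplified for 18 cycles, diluted 5-fold and measured with TaqMan assays on Fluidigm arrays, per the labels' protocols. The deposited table holds 95 assay rows (Il2 has 2) and 1449 cells, and 200 cells were analysed here. Its values are log2 amounts (cycles) as deposited. Per the labels they are Ct without normalization, but the most abundant transcripts had the highest values and undetected ones 0, so they were read as 40 minus Ct, an inferred offset. Neither the array of a cell nor a filter on cells is given in the sources used here. Of the rows, 93 were matched to RefSeq (GRCm38.p6), which replaced 3 names.

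Shares (values above 0), medians of values above 0 (at least 10 cells in each population) and mean levels (value above 12) were computed with Python 3.11.15, numpy 2.4.6, pandas 2.3.3 and scipy 1.17.1, and drawn with matplotlib 3.10.9. Differences are Tcm minus day 7 Tmp. Stretches were found by the change point in R18s and Actb, after seeing the data. The text names up to 12 genes each way by share and 8 by median, and members of 12 gene lists. Genes named outside this rule were chosen after their values were seen. Populations and lists were chosen with earlier results of these data known. The totals include genes that are not reported here.

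The size rules were tried on simulated data with 94 genes, 20 of them changed by 40 points: 100% were recovered, and 0.0811% of the unchanged genes were called. A change of 40 points lies well above the limit of 20. The recovery therefore does not speak to the smaller differences reported here, from 21.1 points (Il2rb) to 33.5 (Il7r). The simulation draws cells independently, with no shift between stretches and no difference between animals, sorts or runs, so the 0.0811% leaves these out. Unchanged genes kept their day 7 Tmp shares. Of the 94 genes, 56 were found in under 10% of both populations, where a gap of 20 points can hardly arise. The 0.0811% therefore says little about genes of middling share. Alternatives were other value limits, minimum genes per cell, centring, means of detected cells, other cell minimums and column subsets. The restriction to cells with 13 to 17 genes detected was added after seeing the data.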

Additional observations from a re-analysis of the deposited data

Results flagged for a closer look

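The direction of a difference in value between memory cells and their day 7 counterparts was compared on both sides of the study: Tcm minus day 7 Tmp, and Tem minus day 7 Tsle. For 5 genes the median of cells with the transcript was at least 1 cycle apart on both sides, in opposite directions. On the Tcm side, 7 of the 24 genes compared (29.2%) were at least 1 cycle higher and 3 (12.5%) lower. How many genes could be compared on both sides, or moved alike, is not given here. The 5 genes therefore have no share to be read against. Each side is 1 sample a population, so the difference between the sides was not tested. Lgals1 was 3.08 cycles higher in Tcm than in Tmp, and on the other side its difference was -3.20. Ccl5 was 2.40 cycles higher in Tcm, against -2.98. Actb was 1.23 cycles higher, against -3.08, and Thy1 1.09 higher, against -1.12. Cxcr3 differed by -1.30 cycles, against 3.02 for Tem minus Tsle. Of these genes, Lgals1 and Ccl5 kept their direction in all 4 pairings of the Tcm and Tmp stretches. Tem cells had a median of 11 genes detected per cell and an Actb median of 17.1, below the 13 genes and 20.2 of day 7 Tsle, and the part of this in the differences was not tested.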

How the results depend on the processing

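Of the 5 genes reported by share, the size rule of 20 points held under 6 of 7 other settings for Tcf7 (not in the later columns, 13.3) and 6 for Cd8a (not in cells with 13 to 17 genes detected, 19.6). It held under 4 for Il7r (not in the earlier columns, 11.2, the longer stretches, 17.3, or for values above 16, 14.1). It held under 2 for Il2rb (10.5 to 23.0 over all 7) and 2 for Id2. In cells with 13 to 17 genes detected 3 genes were higher and 1 lower (Klrc1, -21.4 points). More than 20 points in all 4 pairings of stretches held for 1 gene, not reported by name. Cd8a stood on the limit, at 20 points in its lowest pairing. Among the earlier columns of each population 2 genes were lower (Klrc1 and Foxp1), and in the longer stretches 1 (Klrc1, -31.3). Id2 turned to -3.23 points in the earlier columns and -2.27 in the longer stretches, since the cells that hold it are left out. Higher in median value were 4 genes after centring on Actb and Gapdh and 4 in all 4 pairings, both times Tcf7, Ccl5, Ptprc and Lgals1. Lower in median value were 1 gene in the later columns, 5 after that centring, 6 with a minimum of 5 detected cells and 0 in all pairings. In the later columns the differences in value reversed for Thy1 (-0.27), Cxcr3 (1.44) and R18s (1.85). Of the mean levels, 3 genes were higher when cycles above 16 were counted (Ccl5, Ptprc and Actb). Lower were 2 genes in the earlier columns, 2 in the longer stretches (Cxcr3 and R18s) and 1 after centring on Actb and Gapdh (R18s). The cause was not tested. No paired analysis was possible because each population is 1 sample.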

Other observations

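Several genes outside the lists, or found in few cells, also differed between the populations by less than the size rules, and were chosen after their values were seen. Psmb7, a subunit of the proteasome, was found in 30 Tcm cells (21.7%, 15.2 to 29.6) and 4 Tmp cells (6.45%, 1.79 to 15.7), with 28.9% and 10.9% in the Tcm stretches and 9.09% and 0% in the Tmp stretches. Most of its Tcm values were low, and 5.07% of Tcm and 6.45% of Tmp cells had one above 12. Rela, a subunit of NF-kappaB, was found in 31 Tcm cells (22.5%) and 8 Tmp cells (12.9%), and Ifnar1, a chain of the type I interferon receptor, in 14 (10.1%) and 2 (3.23%). Mapk3, the gene of the kinase ERK1, was found in 6 Tcm cells (4.35%) and 7 Tmp cells (11.3%), and all 7 of those Tmp cells lay in the first stretch. Across all 94 genes, 22 were higher in Tcm by any amount in all 4 pairings of stretches and 6 were lower. Those lower were all rare and included Ccl3, Ccl4, Gzmb, Serpinb9 and Gata3. Some of those higher were rare as well, such as Tbx21 (3 Tcm and 0 Tmp cells) and Bcl6 (4 and 0). Transcripts of 56 genes were found in under 10% of both populations, and of these 13 in 0 cells of either.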
